A study of Mus musculus with 24 samples.

Results

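Decorin (Dcn) is the founding member of the small leucine-rich proteoglycans (SLRPs), a family of secreted matrix proteins built on a short array of leucine-rich repeats. The data for 8 SLRP genes, Dcn, Lum, Bgn, Fmod, Ogn, Aspn, Omd and Prelp, are described here out of 37315 genes in a table of normalized counts of mouse RNA sequencing (RNA-seq). Dcn was selected on its large fall with interferon γ (IFNγ) at day 7 of reprogramming. The other 7 genes were listed with it as members of the same family. The values of Dcn in libraries of day 7 are therefore given as a description with no test.

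SLRPs bind the surface of collagen fibrils outside the cell and limit how the fibrils grow and pack. Decorin and biglycan (Bgn) carry chains of chondroitin or dermatan sulfate, and lumican (Lum), fibromodulin (Fmod) and osteomodulin (Omd) can carry keratan sulfate, whereas asporin (Aspn) lacks such chains. Decorin also sequesters transforming growth factor β and binds the epidermal growth factor receptor, and the genes of the family are widely used as markers of fibroblasts and other mesenchymal cells.

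The 24 libraries came from 12 populations with 2 libraries each. All derived from the PaX line, female mouse embryonic stem cells (ESCs) of a cross of 129S1/SvImJ and CAST/EiJ, with a GFP reporter (X-GFP) in the Hprt gene of the X chromosome of M. musculus origin and a doxycycline-inducible MKOS reprogramming cassette in Sp3. Neural precursor cells (NPCs) made from this line were reprogrammed to induced pluripotent stem cells (iPSCs) on irradiated male mouse embryonic fibroblasts as feeders. The populations were ESCs, NPCs, day 2 cells, day 5 cells positive for the surface marker SSEA1, and SSEA1-positive day 7 cells sorted by X-GFP into a negative, a medium and a high class (GFP-negative, GFP-medium and GFP-high). Cells of days 2, 5 and 7 came from a control arm and from an arm that received IFNγ (10 ng/ml) between days 0 and 5, so that the day 7 cells had been without IFNγ since day 5. Feeders were stained with the dye CFSE at day 2 and the unstained cells were sorted, whereas at days 5 and 7 SSEA1 was the criterion. The populations rest on 1 cell line, and the 2 libraries of a population measure only the spread between these samples. The authors call the 2 RNA-seq replicates independent, and whether they were separate reprogramming rounds is not given in the sources used here.

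Between 24746109 and 37056508 reads per library were counted on genes. The labels were checked on markers. The summed normalized count of 6 neural precursor markers was between 42058 and 45728 in NPCs and between 625 and 686 in ESCs. That of 5 pluripotency markers was between 114437 and 122725 in ESCs and between 785 and 1186 in NPCs. In NPCs 6 of 6 neural precursor markers had more than 3 reads in each library, and in ESCs 5 of 5 pluripotency markers did. Of the pluripotency markers 4 or 5 also did in NPCs, so that the sums are the check. Gbp2 and Irf1, targets of IFNγ, rose with IFNγ at day 2 by 5.51 and 4.37 and at day 5 by 3.07 and 1.88 on the log2(normalized count + 1) scale, with a largest limma adjusted p of 0.000234. In NPCs 12 of 12 fibroblast markers also had more than 3 reads in each library, and their summed normalized count was between 29924 and 44104. The summed normalized count of 4 Y-linked genes (Ddx3y, Eif2s3y, Kdm5d and Uty), which only the male feeders carry, was 253 and 218 in the day 2 control libraries and 125 and 223 in the day 2 IFNγ libraries. It was at most 12.5 in each library of the other 10 populations. Y-linked RNA, which the female line cannot make, was thus present in each day 2 library.

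The 8 genes lay in 4 places of the genome (GENCODE vM21, GRCm38/mm10). Dcn was on chromosome 10 from 97479609 to 97518143 on the plus strand, with Lum 46.98 kb downstream. Aspn, Omd and Ogn lay in a row on chromosome 13, 14.9 and 15.2 kb apart, and all 3 were inside Cenpp, a centromere protein gene on the opposite strand. Prelp and Fmod were on chromosome 1 with 115.8 kb between them, and Bgn was on the X chromosome from 73483602 to 73495933. Whether the counting used the strand of the reads is not given in the sources used here, so reads of Cenpp and of the 3 genes inside it may not be told apart. Cenpp was highest in ESCs at 821 ± 43.9 (SD, n = 2), where Aspn, Omd and Ogn had 0 or 1 reads. No 50-base stretch of the transcripts of Dcn, Lum, Fmod, Ogn or Aspn occurred in a transcript of another gene, whereas 8.47% of those of Prelp occurred in Gm15851, which overlaps it on the other strand.

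Sequence upstream of the start was in the RefSeq promoter table (GRCm38.p6) for 6 of the 8 genes, Bgn, Fmod, Ogn, Aspn, Omd and Prelp. For 3 of them the 250 bases are printed 5′ to 3′ with CG dinucleotides in capitals, namely Aspn, the gene of the family that fell with IFNγ at day 2, and Prelp and Bgn, the 2 genes tested with IFNγ in GFP-negative cells of day 7. They are chr13:49544193-49544442 (plus strand), chr1:133921402-133921651 (minus strand) and chrX:73483351-73483600 (plus strand).
Aspn: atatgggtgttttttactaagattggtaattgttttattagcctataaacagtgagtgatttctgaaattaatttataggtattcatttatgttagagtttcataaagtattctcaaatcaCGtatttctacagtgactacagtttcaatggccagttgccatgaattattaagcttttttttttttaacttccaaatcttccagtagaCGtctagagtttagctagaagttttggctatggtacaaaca
Prelp: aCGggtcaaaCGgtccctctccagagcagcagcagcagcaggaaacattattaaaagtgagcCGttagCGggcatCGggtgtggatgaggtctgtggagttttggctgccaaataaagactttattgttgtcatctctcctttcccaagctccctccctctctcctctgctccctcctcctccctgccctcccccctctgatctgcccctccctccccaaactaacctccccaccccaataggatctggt
Bgn: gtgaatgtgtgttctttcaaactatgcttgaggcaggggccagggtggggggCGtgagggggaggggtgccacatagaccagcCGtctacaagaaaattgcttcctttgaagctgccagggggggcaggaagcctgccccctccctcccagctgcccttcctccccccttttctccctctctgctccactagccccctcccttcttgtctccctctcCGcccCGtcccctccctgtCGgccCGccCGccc
The window of Aspn had 2 CG dinucleotides and 30.0% G and C, beside a median of 52.4% G and C over the 32851 windows in the table. The window of Prelp had 5 and that of Bgn had 7, beside a median of 6 over the table. The letters TTCNNNGAA, the core of a site bound by STAT dimers, were searched on both strands and stood in 7.02% of all windows and in 0 of the 6 windows of the family. The search covered this window alone, and a match or its absence says nothing about binding.

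Dcn was the member with the widest range of levels. Its normalized counts were 0 and 0.952 in the ESC libraries and 1262 and 1444 in NPCs. At day 2 it stood at 2810 and 1869 in control cells and at 1782 and 1604 in IFNγ-treated cells. At day 5 it stood at 1148 and 611 in control cells and at 542 and 233 in IFNγ-treated cells. At day 7 the arms were far apart. GFP-negative cells had 4300 and 3801 in the control arm and 219 and 287 in the IFNγ arm. GFP-medium cells had 5020 and 4472 against 166 and 242, and GFP-high cells had 2176 and 1668 against 41.1 and 119.

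From the highest to the lowest mean of Dcn, the populations were day 7 GFP-medium control, GFP-negative control, day 2 control, GFP-high control, day 2 IFNγ, NPC, day 5 control, day 5 IFNγ, the day 7 IFNγ-treated GFP-negative, GFP-medium and GFP-high cells, and ESC. The libraries of neighbours overlapped for day 2 control and GFP-high control, for GFP-high control and day 2 IFNγ, for day 5 IFNγ and IFNγ-treated GFP-negative cells, and for the IFNγ-treated GFP-negative and GFP-medium cells. For the other neighbours every library of the higher population was above every library of the lower.

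**Figure D1:**
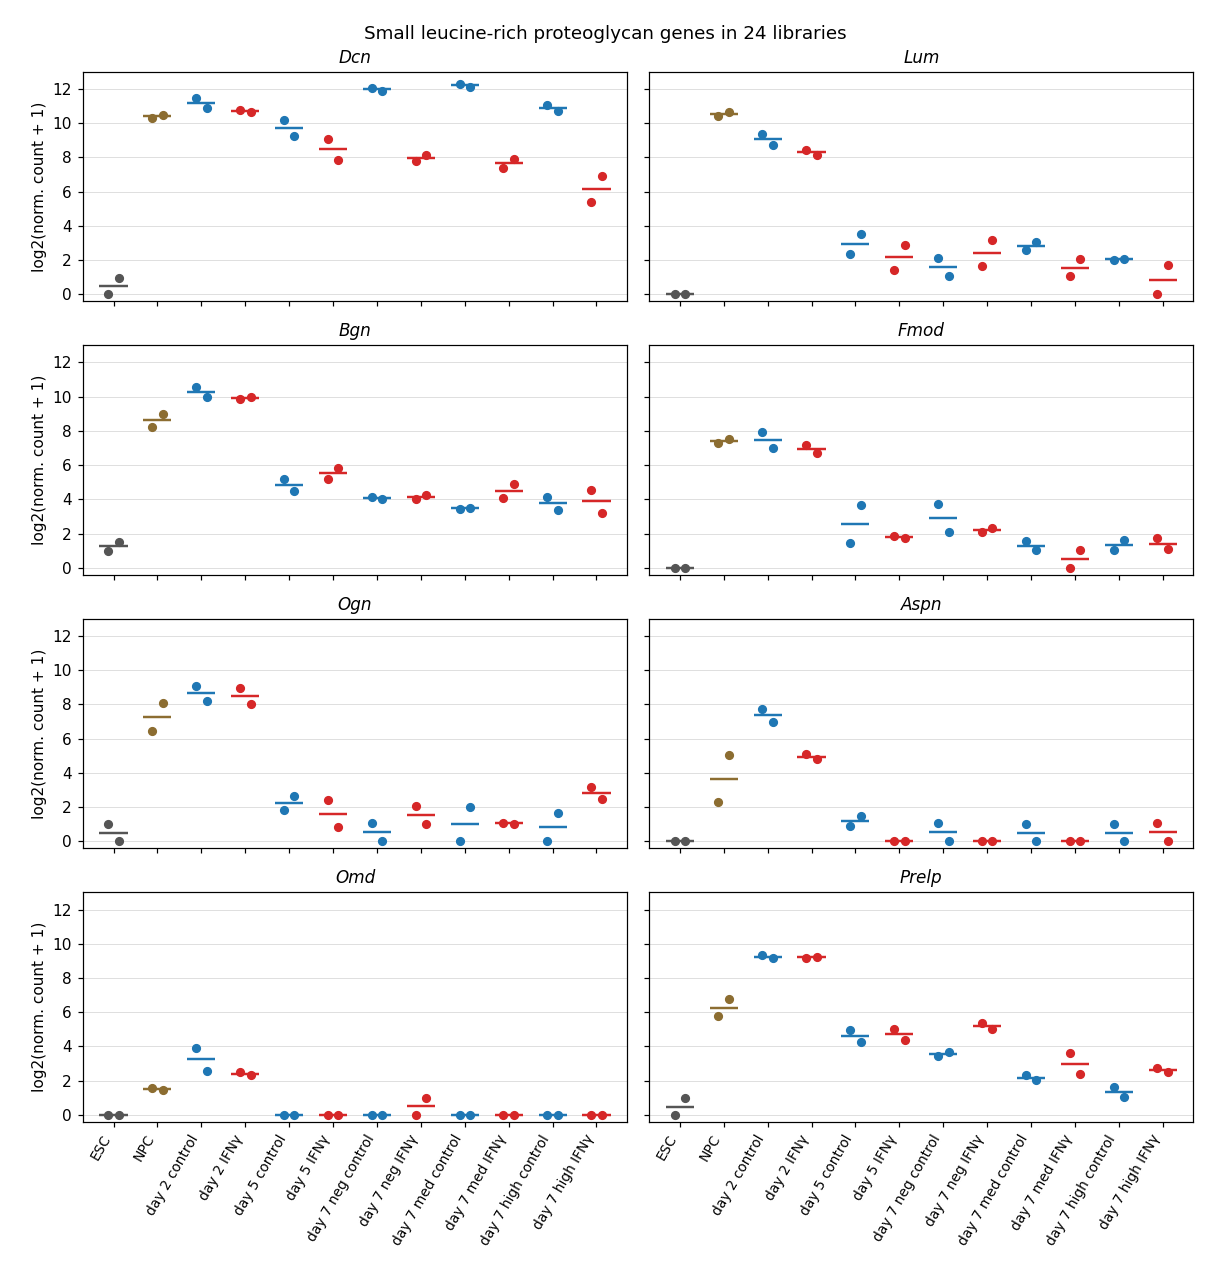
Levels of the 8 genes in 24 libraries, 1 panel per gene. The y axis is log2(normalized count + 1), the x axis lists the 12 populations (neg, med and high are the X-GFP classes), each point is a library, each bar the mean of 2 libraries, and control is in blue, IFNγ in red, NPC in brown and ESC in gray. Dcn keeps a mean of 4051 and 4746 normalized counts in the control GFP-negative and GFP-medium cells of day 7, whereas the other 7 genes stay at or below 56.2 in each library from day 5 on.

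The other 7 genes had another course. Lum, Bgn, Fmod, Ogn and Prelp were high in NPCs and at day 2, Aspn mainly in day 2 control cells, and Omd was low throughout, and each of the 7 was low in each library of days 5 and 7. Lumican, a regulator of fibril spacing in the cornea, had its highest level in NPCs with 1389 and 1601 normalized counts. It was at 671 and 430 in day 2 control cells, at 347 and 282 in day 2 IFNγ-treated cells, and at most 10.7 in each later library. Biglycan, a close relative of decorin, peaked in day 2 control cells at 1518 and 1005. It was at 299 and 513 in NPCs, at 943 and 1005 in day 2 IFNγ-treated cells, and between 8.09 and 56.2 in the later libraries.

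Fibromodulin, which modulates collagen cross-linking, was at 157 and 186 in NPCs, at 244 and 127 in day 2 control cells and at 147 and 104 with IFNγ. Osteoglycin (Ogn) was at 86.5 and 274 in NPCs, at 541 and 294 in day 2 control cells and at 494 and 260 with IFNγ. Both had at most 13 reads in each later library, so that their groups after day 2 were close to the floor of 3 reads used here. Prelp, which binds collagen and heparan sulfate, was at 53.5 and 107 in NPCs, at 640 and 568 in day 2 control cells and at 583 and 600 with IFNγ.

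Asporin was at 3.89 and 31.6 in NPCs, at 214 and 125 in day 2 control cells and at 33.7 and 26.7 in day 2 IFNγ-treated cells. It had at most 2 reads in each library of days 5 and 7. Omd was the lowest member, with 14.3 and 4.96 in day 2 control cells, 4.67 and 3.96 with IFNγ, 2 reads in each NPC library and at most 1 read elsewhere. The 7 genes other than Omd had a mean above 10 over the 24 libraries. Each of the 8 genes, Dcn included, had at most 2 reads in each ESC library.

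Per kilobase of exon, Lum was the highest member in NPCs with 611 ± 61.3 (SD, n = 2) normalized counts, above Dcn with 232 ± 22.1. The length is that of all annotated exons of a gene merged, 5838 bases for Dcn and 2448 for Lum. Without this scaling the NPC means were 1353 for Dcn and 1495 for Lum, so that the order of levels and the shares below depend on the length used. At day 2 in control cells Dcn was the highest with 401 ± 114, followed by Lum with 225 ± 69.7 and Bgn with 207 ± 59.5, and the libraries of Lum and Bgn overlapped. Of the summed level of the 8 genes per kilobase, Dcn made up 20.7 to 23.2% in NPCs and 30.8 to 31.2% in day 2 control cells. This share was 84.6 to 91.7% in day 5 control cells and 98.4 to 99.3% over the 6 control libraries of day 7. In the IFNγ arm it was 30.0 to 31.7% at day 2, 68.6 to 83.8% at day 5, 69.4 to 74.4% in GFP-negative, 81.2 to 83.9% in GFP-medium and 42.3 to 78.2% in GFP-high cells.

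**Figure D2:**
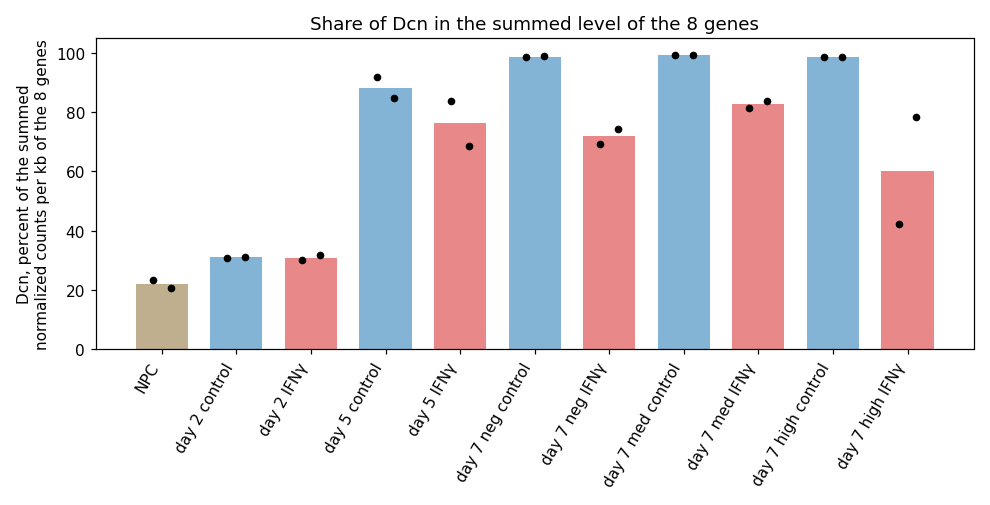
Share of Dcn in the summed level of the 8 genes. Bars are means of 2 libraries and points are libraries, in percent of the summed normalized counts per kilobase of exon, with control in blue, IFNγ in red and NPC in brown, and ESCs are left out because they had at most 4 reads of the 8 genes together. The share lies near 31% at day 2 and above 98% in the control cells of day 7. It depends on the length used, that of all annotated exons of a gene merged.

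The first comparison asked how the 2 end points of reprogramming differ. Both NPC libraries were above both ESC libraries for 7 of the 8 genes, and Omd was at the floor of 3 reads in both populations. The 6 genes with a mean above 10 over these 4 libraries passed that filter through NPCs alone, so that they could be called in 1 direction only. All 6 were called higher by limma, with a largest adjusted p of 0.000137 for Ogn. Neither value adds support, and the count cannot be read against the 43.4% of all genes tested that were called higher. ESCs were at the floor of 3 reads per library for each of the 8 genes, so that the fold changes are lower bounds. Lum was at least 515-fold, Dcn at least 466-fold, Bgn at least 140-fold, Ogn at least 62.1-fold, Fmod at least 59.1-fold and Prelp at least 27.7-fold higher in NPCs.

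Day 2 control cells were then compared with NPCs. Of 7 genes tested, 5 were higher (31.6% of all genes tested were) and 1 was lower (37.6% of all genes). Aspn rose the most, by 3.70 ± 0.86 (SE) on the log2(normalized count + 1) scale with an adjusted p of 0.0111. Prelp rose by 2.97 ± 0.33 with an adjusted p of 0.000618, Bgn by 1.66 ± 0.30 with 0.00412, Ogn by 1.36 ± 0.56 with 0.0764 and Dcn by 0.76 ± 0.19 with 0.0152, all from limma. Lum fell by 1.47 ± 0.21 with an adjusted p of 0.00175, and Fmod differed by 0.05 ± 0.32 with 0.909. The Y-linked sum was at most 1.94 in NPCs and 218 and 253 at day 2, the fibroblast marker sum was 29924 and 44104 in NPCs and 42231 and 62533 at day 2, and their part in these differences was not tested. In bulk samples, fewer cells of a type and less RNA per cell cannot be told apart. The call of Aspn was lost without either day 2 control library (adjusted p of 0.143 without replicate 1 and 0.101 without replicate 2), and that of Ogn without either of these libraries (0.420 and 0.174) or without NPC replicate 1 (0.144). With all 24 libraries in 1 fit the call of Dcn was lost as well, with an adjusted p of 0.129. That fit takes its variance in part from the day 7 libraries that Dcn was selected on.

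Between day 2 and day 5 in the control arm, 3 genes had a mean above 10 in both groups, and Dcn, Bgn and Prelp all fell in limma, where 35.6% of all genes tested were called lower. Dcn fell by 1.45 ± 0.30 (SE) on the log2 scale with an adjusted p of 0.00408, from a mean of 2339 to 879. Lum, Fmod, Ogn and Aspn were also called lower, but passed the filter through day 2 alone and could be called in that direction only, so that they are not counted against this share. For the others the mean at day 2 was 25.1-fold (Prelp), 28.1-fold (Fmod), 44.5-fold (Bgn), 74.1-fold (Lum) and 106-fold (Ogn) that of day 5, and for Aspn, at the floor at day 5, it was at least 65.3-fold. The largest limma adjusted p of these 6 was 0.0007, which adds no support for Lum, Fmod, Ogn and Aspn, where only a fall could be called. In the day 5 libraries the sum of the Y-linked genes was 2.66 and 5.89 and that of the fibroblast markers 1265 and 1646, and their part in the fall was not tested.

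In the control arm Dcn was 4.61-fold higher in day 7 GFP-negative cells than in day 5 cells, as a description. Its means were 4051 ± 352 (SD, n = 2) in GFP-negative, 4746 ± 387 in GFP-medium and 1922 ± 359 in GFP-high cells, and neither library of the GFP-high cells reached the range of the other classes. GFP-high control cells kept a mean of Dcn at least 662-fold above ESCs. The Y-linked sum was at most 4.27 and the fibroblast marker sum between 543 and 888 in these 6 libraries. The male feeder markers were close to 0 reads where Dcn was highest. The part of feeder RNA in the level of Dcn was not tested.

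Bgn and Prelp, the 2 genes tested at this step, were both lower in day 7 GFP-negative than in day 5 control cells (29.5% of all genes tested were). Bgn fell from a mean of 28.3 to 15.7 and Prelp from 30.3 and 17.8 in its libraries to 9.87 and 11.8, with limma adjusted p of 0.0994 and 0.0513. These calls rest on few reads, and both were lost with DESeq2 (adjusted p of 0.297 for Bgn and 0.207 for Prelp), that of Bgn with a pseudocount of 0.1 (0.102), and both without either day 7 library or without day 5 control replicate 1, with an adjusted p between 0.108 and 0.446. Between GFP-medium and GFP-negative control cells 0 of 1 gene tested (Bgn) passed in limma, 0 at an unadjusted p under 0.05 and 0 in DESeq2 or edgeR, where 47.0% of all genes were called. Of those calls 46.5% were higher in GFP-medium cells, and 60.2% with each library scaled to the same total. Between GFP-high and GFP-medium control cells 0 of 1 gene (Bgn) passed in limma, DESeq2 or edgeR and 0 had an unadjusted p under 0.05, where 64.1% of all genes were called.

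**Figure D3:**
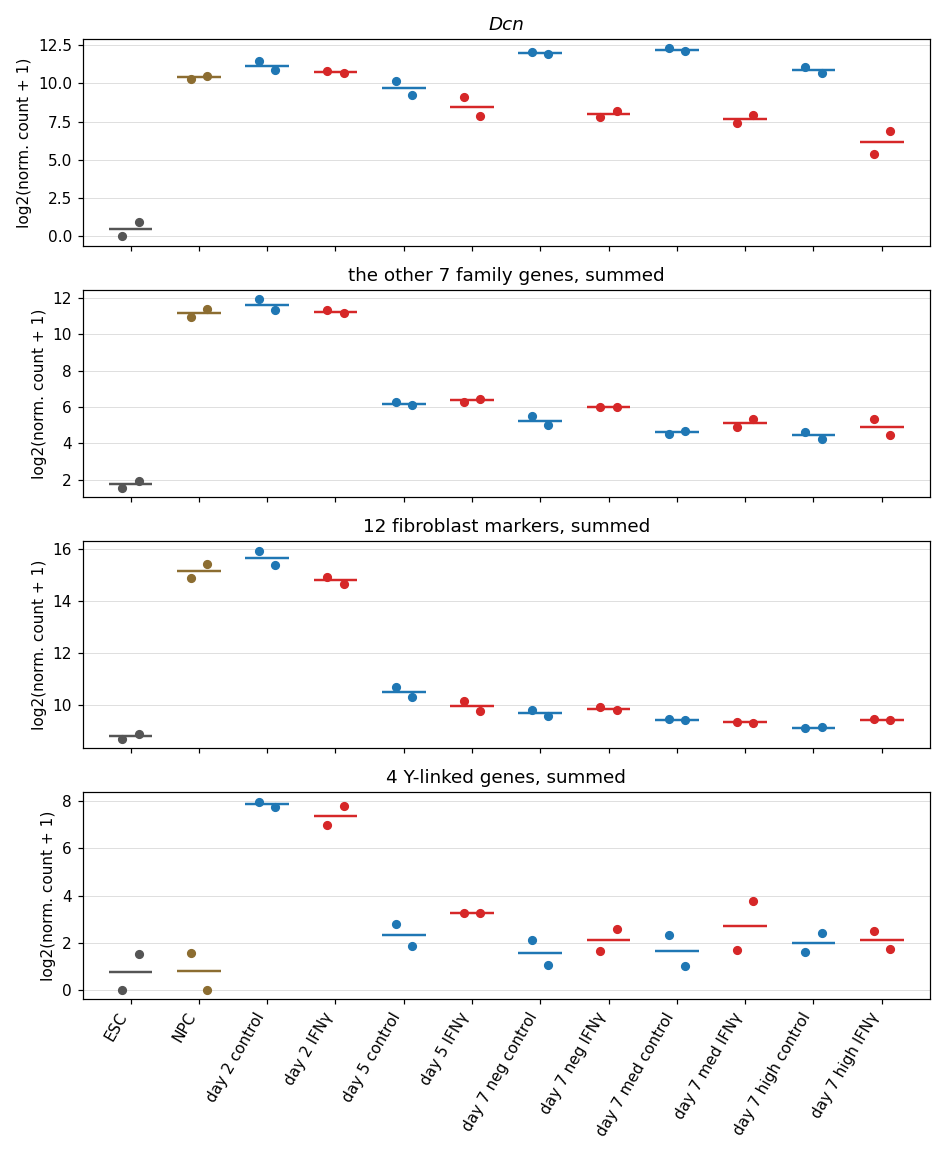
Dcn beside the summed level of the other 7 family genes, of 12 fibroblast markers and of 4 Y-linked genes. The y axes are log2(normalized count + 1), each with its own range, points are libraries and bars means of 2 libraries, with control in blue and IFNγ in red. The Y-linked sum exceeds 100 at day 2 alone, and Dcn is highest in the GFP-negative and GFP-medium control cells of day 7, with 3801 to 5020 normalized counts. The part of feeder RNA in these levels was not tested.

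IFNγ-treated and control cells were compared at day 2 to see which genes of the family respond while IFNγ is present. Aspn fell by 2.41 ± 0.30 (SE) on the log2 scale with a limma adjusted p of 0.0084, a mean 5.61-fold lower with IFNγ. It was the 1 gene called of 7 tested, and 3.45% of all genes tested were called lower and 5.03% higher. Lum, Dcn and Bgn were lower in both IFNγ-treated libraries than in both controls without passing the test, although the nearest libraries of Bgn were both at 1005. Their differences were -0.78 ± 0.22 with an adjusted p of 0.112 for Lum, -0.44 ± 0.18 with 0.229 for Dcn and -0.34 ± 0.18 with 0.340 for Bgn. The groups overlapped for Fmod (-0.51 ± 0.33), Ogn (-0.15 ± 0.37) and Prelp (-0.03 ± 0.09). Over the 7 genes the median difference was -0.44, beside 0.01 over all genes tested.

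The fall of Aspn passed the test under each other setting run, with a difference between -2.02 and -2.79. The other genes depended on the libraries. Without day 2 control replicate 2, the library with the lower values, Lum, Bgn and Dcn passed as well, with an adjusted p of 0.0532, 0.038 and 0.026, and without day 2 IFNγ replicate 1 Lum passed with 0.0684. Lum passed with DESeq2, with an adjusted p of 0.0142. With a replicate block Lum, Dcn, Bgn and Fmod passed as well, and the calls over all genes went from 1332 to 4995. The labels do not say what the replicate numbers mark. Of the fibroblast markers 5 of 12 were lower with IFNγ and 0 higher, where 3.45% of all genes tested were called lower and 5.03% higher. These markers include Col1a1 and were listed with earlier results of these data known, so that the count is a description. The median difference of the fibroblast markers was -0.73, with sums of 25630 and 31003 against 42231 and 62533. Of the Y-linked genes 0 of 4 passed in limma, DESeq2 or edgeR, 1 had an unadjusted p under 0.05, and their median difference was -0.53. The part of feeder RNA in the day 2 differences was not tested.

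At day 5 the libraries of Dcn did not overlap, with a difference of -1.23 ± 0.42 (SE) on the log2 scale and a mean 2.27-fold lower with IFNγ, and a limma adjusted p of 0.209. Bgn differed by 0.70 ± 0.37 with an adjusted p of 0.351 and Prelp by 0.11 ± 0.40 with 0.908. Of these 3 genes tested 0 passed in limma, DESeq2 or edgeR and 1, Dcn, had an unadjusted p under 0.05, where 1.65% of all genes tested were called higher and 0.535% lower. The difference of Dcn lay between -1.84 and -0.63 (without day 5 IFNγ replicate 1 and 2) when single libraries were left out. With all 24 libraries in 1 fit Dcn had a limma adjusted p of 0.0835. That fit takes its variance in part from the day 7 libraries that Dcn was selected on, so that this value adds no support. Dcn passed with a replicate block, where the calls over all genes went from 330 to 3379. The Y-linked sum was 8.62 and 8.70 with IFNγ and 2.66 and 5.89 without.

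The effects of IFNγ at days 2 and 5 were compared by an interaction term. Dcn, Bgn and Prelp were above the filter at both days. Of these 3 genes 0 passed in limma and 1, Bgn, had an unadjusted p under 0.05, where 0.676% of all genes tested passed. Lum, Fmod, Ogn and Aspn entered the fit through day 2 alone and were below the filter at day 5. They did not pass either and are not counted against this share. For Dcn the effect at day 5 minus that at day 2 was -0.79 ± 0.56 (SE) with an adjusted p of 0.688. For Bgn it was 1.04 ± 0.42 with an adjusted p of 0.480.

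At day 7, 2 days after IFNγ had been withdrawn, Dcn was lower in the IFNγ arm in each of the 3 X-GFP classes, which is the value it was selected on. The mean was 16.0-fold lower in GFP-negative, 23.3-fold lower in GFP-medium and fell from 1922 to 80.1 in GFP-high cells, and the log2 differences were -4.01, -4.56 and -4.74. In GFP-high cells the IFNγ-treated libraries held 36 and 103 reads of Dcn, so that leaving out 1 of them moved the log2 difference from -5.50 (without replicate 2) to -3.99 (without replicate 1). The fibroblast marker sums stayed between 543 and 960 in the 12 libraries of day 7, with 876 and 960 with IFNγ against 764 and 888 in GFP-negative, 626 and 652 against 673 and 701 in GFP-medium, and 673 and 700 against 543 and 565 in GFP-high cells. The pluripotency marker sums were higher with IFNγ, for example 69033 and 71244 against 42686 and 44020 in GFP-medium cells. The neural precursor marker sums were 4989 and 5200 with IFNγ against 4838 and 4771 in GFP-negative, 1548 and 1852 against 2983 and 3235 in GFP-medium, and 711 and 747 against 1631 and 1569 in GFP-high cells. Of these markers 1 of 5 tested rose and 0 fell in GFP-negative cells, and 0 rose and 2 of 3 fell in GFP-medium and in GFP-high cells. The part of these marker changes in the fall of Dcn was not tested. Of the fibroblast markers tested with limma, 2 of 9 rose and 0 fell in GFP-negative, 3 rose and 3 fell of 9 in GFP-medium, and 1 rose and 0 fell of 8 in GFP-high cells. The counts of both marker lists stand beside shares over all genes tested. These were 31.1% higher and 30.8% lower in GFP-negative, 33.3% and 29.6% in GFP-medium, and 18.1% and 20.4% in GFP-high cells.

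Prelp moved the other way. In GFP-negative cells it was at 39.7 and 31.7 with IFNγ and at 9.87 and 11.8 in the control, a rise of 1.63 ± 0.32 (SE) on the log2 scale with a limma adjusted p of 0.00236. It passed under each other setting run. Bgn did not pass in these cells (0.05 ± 0.34, adjusted p of 0.903), so that 1 of 2 genes tested was called higher, where 31.1% of all genes tested were called higher and 30.8% lower. With each library scaled to the same total, the share of higher calls among all calls went from 50.3% to 66.3% and the median of all genes from 0.02 to 0.17 on the log2 scale, and Prelp rose by 1.78. In GFP-medium cells Bgn was at 15.7 and 29.3 with IFNγ and at 9.88 and 10.3 in the control. It rose by 1.02 ± 0.41 with an adjusted p of 0.0551, as the 1 gene of the family tested, where 33.3% of all genes were called higher and 29.6% lower. This call was lost with DESeq2 (adjusted p of 0.226), without the filter on low values (0.108), without IFNγ replicate 2 (0.382) and without either control library (0.152 and 0.125).

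Prelp was below the filter in the other classes. It had 11.2 and 4.18 with IFNγ and 3.95 and 3.10 in the control in GFP-medium cells, and 5.71 and 4.62 against 2.06 and 1.07 in GFP-high cells. Bgn differed by 0.11 ± 0.49 in GFP-high cells, so that 0 of 1 gene tested passed in limma, DESeq2 or edgeR and 0 had an unadjusted p under 0.05, where 18.1% of all genes were called higher and 20.4% lower. In the tests of a difference of the IFNγ effect between classes, Bgn was the 1 gene tested that was above the filter in each class. It did not pass between GFP-medium and GFP-negative cells or between GFP-high and GFP-medium cells, with an unadjusted limma p above 0.05 in both. Of all genes 15.7% and 12.8% passed. Prelp entered the first test through GFP-negative cells alone and did not pass, so that it is not counted. In that first test, 46.6% of the calls over all genes were positive, and 12.2% with each library scaled to the same total.

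**Figure D4:**
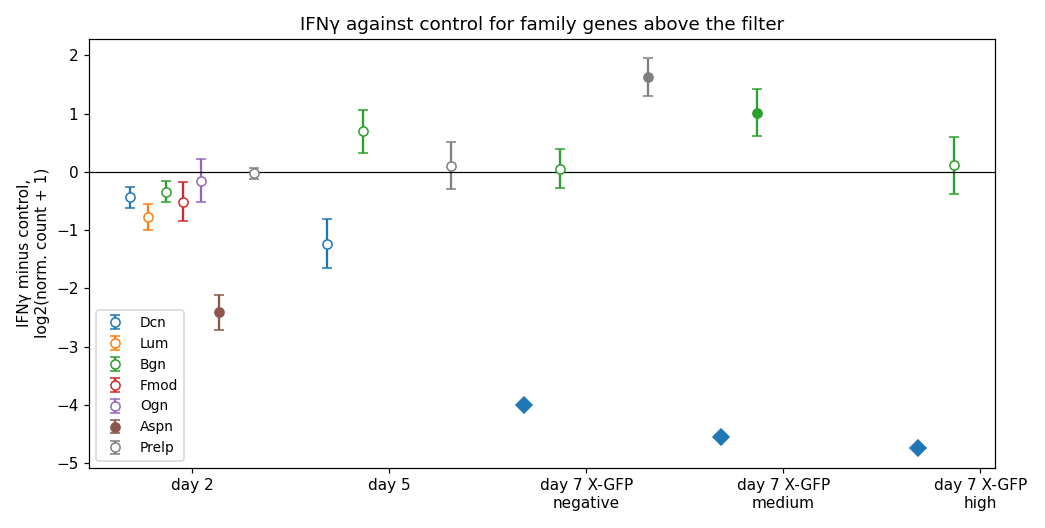
Difference between IFNγ-treated and control cells for the family genes above the filter. The y axis is the difference of log2(normalized count + 1), bars are standard errors of limma from 2 libraries per group, filled circles passed at an adjusted p under 0.1, open circles did not, and the diamonds are Dcn at day 7, given with no test. Aspn at day 2 (-2.41), Prelp in GFP-negative (1.63) and Bgn in GFP-medium cells of day 7 (1.02) are the filled circles.

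Genes that work with the SLRPs were counted from lists of known function, which were chosen with earlier results of these data known. Their counts at day 7 stand beside shares of all genes tested of 31.1% higher and 30.8% lower in GFP-negative, 33.3% and 29.6% in GFP-medium, and 18.1% and 20.4% in GFP-high cells, and a list near these shares shows nothing of its own. Of 19 genes that assemble chondroitin and dermatan sulfate chains, 1 of 19 tested was higher with IFNγ and 0 lower at day 2. It was Chst15, a sulfotransferase, which rose by 0.35 ± 0.07 (SE) with a limma adjusted p of 0.0504. This call was lost without any 1 of the 4 day 2 libraries, with an adjusted p between 0.147 and 0.210. At day 5, 0 of 18 passed in limma, DESeq2 or edgeR and 3 had an unadjusted p under 0.05. At day 7, beside these shares, 7 rose and 4 fell of 19 in GFP-negative, 5 rose and 7 fell of 17 in GFP-medium, and 3 rose and 4 fell of 18 in GFP-high cells. Of 9 genes of keratan sulfate synthesis, 0 of 8 passed at days 2 and 5 in limma, DESeq2 or edgeR, with 0 and 1 at an unadjusted p under 0.05, and 4, 2 and 0 rose and 2, 2 and 4 fell of 9 in the 3 classes of day 7, beside the same shares.

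Fibrillar collagens and the enzymes and proteins of fibril assembly, to which SLRPs bind, were a list of 13 genes. At day 2, 7 of 13 fell with IFNγ and 0 rose, where 3.45% of all genes tested were called lower and 5.03% higher. Col5a2, a chain of the collagen that starts fibrils, fell by 0.61 ± 0.07 (SE) with a limma adjusted p of 0.00743, and Col1a1, a chain of the main fibrillar collagen, by 0.92 ± 0.13 with 0.014. Among the fibroblast markers, where Col1a1 also stands, Col6a3 fell by 1.43 ± 0.17 with 0.00749 and Thy1 by 1.11 ± 0.16 with 0.0136. At day 5, 1 of 12 rose and 1 fell in limma, where 1.65% of all genes tested were called higher and 0.535% lower. Of the 12 genes 8 had an unadjusted p under 0.05, 6 were called by DESeq2 and 2 by edgeR, and the median difference was -0.37. Loxl1, a lysyl oxidase, rose by 1.14 ± 0.23 with 0.0954, and Pcolce2, an enhancer of procollagen processing, fell by 0.66 ± 0.12 with 0.0659, and both calls were lost without IFNγ replicate 2 (0.416 and 0.103) or without control replicate 1 (0.163 and 0.175) or 2 (0.218 and 0.137). At day 7, 3 rose and 4 fell, 4 rose and 5 fell, and 1 rose and 2 fell of 13 in the negative, medium and high class, where all genes rose in 31.1, 33.3 and 18.1% and fell in 30.8, 29.6 and 20.4% of tests.

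A list of 18 ligands, receptors and processing enzymes of SLRPs had 1 gene lower and 0 higher of 18 at day 2, beside 3.45% and 5.03% of all genes tested. The gene was Adamts5, a protease that cleaves proteoglycans, which fell by 0.67 ± 0.14 (SE) with a limma adjusted p of 0.047. It was lost without day 2 IFNγ replicate 1 (0.105) or 2 (0.109) and without control replicate 1 (0.191). At day 5, 0 of 15 passed in limma, DESeq2 or edgeR and 2 had an unadjusted p under 0.05. At day 7, 6 rose and 6 fell of 15 in GFP-negative, 1 rose and 11 fell of 14 in GFP-medium, and 1 rose and 9 fell of 13 in GFP-high cells, where 30.8, 29.6 and 20.4% of all genes tested fell and 31.1, 33.3 and 18.1% rose. The medians of the list were 0.10, -0.65 and -0.52, beside 0.02, 0.04 and 0.03 over all genes tested. Egfr, a receptor that decorin binds, was chosen after its values were seen. It fell by 2.02 ± 0.17 in GFP-medium cells, which is given as a description with no test. Its differences in GFP-negative and GFP-high cells are not given here. Of 9 further SLRP genes, 0 of 4 tested at day 2 and 0 of 2 at day 5 passed in limma, DESeq2 or edgeR, with 0 at an unadjusted p under 0.05. In GFP-negative cells 1 of 2 rose and 1 fell at day 7. In GFP-medium cells 1 of 2 was called higher by limma, with 0 at an unadjusted p under 0.05 and 0 called by DESeq2 or edgeR, and in GFP-high cells 0 of 2 passed in any of the 3 tools, with 0 at an unadjusted p under 0.05. With 2 genes these counts cannot be told from the shares over all genes.

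The genes whose level followed that of Dcn most closely over the 12 population means were Slc2a10, a glucose transporter, Ano10, Plxnb2, a receptor for semaphorins, Slc37a4 and Pld1, a phospholipase. Their Pearson correlations with Dcn on the log2(mean + 1) scale were 0.97, 0.95, 0.95, 0.94 and 0.94 among 16247 genes ranked. The points share libraries with the selection of Dcn, and the ranking is a description. Slc2a10 was at 345 ± 32.1 (SD, n = 2) in GFP-negative and 421 ± 55.2 in GFP-medium control cells of day 7 and at 66.0 ± 15.9 and 35.9 ± 14.3 with IFNγ. The correlation of the other family genes with Dcn was lower, between 0.33 for Ogn and 0.51 for Bgn. The list depended on the measure, since 0 of the 5 genes were among the top 5 by Spearman correlation and 2 of 5 with a pseudocount of 0.1.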

How the data were processed

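RNA-seq of 24 libraries (TruSeq Stranded Total RNA, reads of 50 bases) was analysed from the table of normalized counts. The authors aligned reads with STAR to mm10 with masked variants, counted them per gene with HTSeq 0.6.1 and deposited the counts divided by DESeq2 size factors, a normalized signal per gene. The strand setting and the annotation release are not given in the sources used here. A second deposited table, of allelic fractions of X-linked genes, was not used here. Each library's values were whole multiples of 1 read (100% within 0.02), which gave back the reads, 24746109 to 37056508 per library. A group at or under 3 reads in each library was taken as at the floor, which covers counting error only. Gene symbols came from GENCODE vM21 (95.0% of IDs matched).

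Genes with a mean above 10 in the libraries of a comparison were tested on log2(normalized count + 1) with limma 3.58.1 (lmFit, eBayes with trend, R 4.3.3), two-sided, with Benjamini-Hochberg adjustment over all genes tested and a threshold of 0.1. A fold change on this scale understates that of low genes. With 2 libraries against 2, an exact permutation test cannot go below a p of 0.33 and was not used. Dcn was not tested in any comparison that holds a day 7 library, which is wider than the design first written. The fit of all 24 libraries takes its variance in part from day 7 libraries, so that its values for Dcn at other days are not free of the selection. Other settings tried were no filter, a pseudocount of 0.1, the same total per library, 1 fit of all 24 libraries, a replicate block, DESeq2 1.42.0 and edgeR 4.0.16 on the recovered reads, and leaving out each library. Leaving out libraries for the 3 interaction terms was added after seeing the data. The script was tested on simulated data. The members and lists were chosen with earlier results of these data known. The text names each family gene, for each list the 2 genes called with the smallest adjusted p at days 2 and 5 (Pax6 and Dppa5a of the marker lists stand in the closing section), and the 5 genes with the highest Pearson correlation to Dcn. Egfr was added after its values were seen.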

Additional observations from a re-analysis of the deposited data

Results flagged for a closer look

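The sign of the difference of Bgn with IFNγ was not the same at each time. Its difference on the log2(normalized count + 1) scale was -0.34 at day 2, 0.70 at day 5 and 1.02 in GFP-medium cells of day 7. It was 0.05 in GFP-negative and 0.11 in GFP-high cells of day 7, where the libraries of the arms overlapped. Of these only the value in GFP-medium cells passed in limma (adjusted p of 0.0551), and it did not pass with DESeq2, without the filter on low values, without IFNγ replicate 2 or without either control library. Each IFNγ-treated library was below both controls at day 2 and above both controls at day 5 and in GFP-medium cells. The difference between days 5 and 2 had an unadjusted p of 0.0353 and a limma adjusted p of 0.480 from the interaction term. The difference between day 2 and GFP-medium cells of day 7 was not tested. The nearest libraries of the arms at day 2 were both at 1005 normalized counts.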

How the results depend on the processing

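Of 171 counts of family genes called under another setting, 149 stayed within 1.5 times the value reported. Of 724 values of single genes, 642 kept direction and side of the threshold, 54 lost the call, 12 gained it, 13 turned direction and 3 moved. The cause of these changes was not tested.

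At day 2 with IFNγ, 2 of 7 genes tested were called with DESeq2, where 1084 of 15697 genes were called. At day 5, 1 gene, Dcn, was called with all 24 libraries in 1 fit, where 2500 of 16247 genes were called. That fit also holds the day 7 libraries that Dcn was selected on. In GFP-medium cells, 0 were called without the filter, where 9763 of 24287 genes were called, and 0 with DESeq2, where 7755 of 15595 were. In GFP-high cells 2 were called with all 24 libraries in 1 fit, where 5645 of 16247 genes were called. Genes enter that fit on their mean over all libraries. All members but Dcn and Bgn had at most 7 reads in each GFP-high library. Between day 7 GFP-negative and day 5 control cells, 1 was called with a pseudocount of 0.1, where 9689 of 15225 genes were called. With DESeq2 0 were called, where 8067 of 15225 genes were. Between GFP-medium and GFP-negative control cells, 1 was called without the filter and 2 with all 24 libraries, where 6135 of 23975 and 5569 of 16247 genes were called. Between GFP-high control cells and ESCs these counts were 3 and 4, where 13064 of 24101 and 11302 of 16247 genes were called. Each family gene was at the floor in ESCs, so that calls against ESCs could go in 1 direction only. All but Dcn and Bgn were at the floor in GFP-high control cells as well.

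Directions turned only without single libraries, among the settings run. The log2 differences without single libraries ranged from -0.61 to 0.31 for Ogn (also 0.29) and from -0.11 to 0.059 for Prelp at day 2, from -0.26 to 0.48 for Prelp at day 5 (also -0.22), from -0.061 to 0.17 for Bgn in GFP-negative cells (also -0.0072) and from -0.58 to 0.81 in GFP-high cells (also -0.25), from -0.42 to 0.51 for Fmod between day 2 and NPCs (also -0.079), and from -0.23 to 0.51 for the Prelp interaction (also -0.20). None of these had passed the test. Chst15, Adamts5, Pax6 (0.64 at day 2, adjusted p of 0.0626), Pcolce2, Loxl1 and Dppa5a (0.46 at day 5, adjusted p of 0.0917) lost their calls without the filter, and Col5a2, Chst15, Adamts5, Pax6 and Dppa5a with all 24 libraries in 1 fit, all by limma.

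The replicate numbers are shared by the labels without saying what they mark, and with 2 pairs they were not taken as pairing. The correlation of deviations of same-numbered libraries was 0.41 at day 2, 0.36 at day 5 and between -0.15 and 0.19 elsewhere. With a replicate block 5 family genes were called at day 2 (Aspn, Dcn, Lum, Bgn and Fmod, all lower) and 1 at day 5 (Dcn), and the calls over all genes went from 1332 to 4995 and from 330 to 3379.

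Over all genes, calls went to 693 at day 2 and 141 at day 5 without the filter, and at day 5 to 2500 with all 24 libraries and 880 with DESeq2. For the interaction of days 5 and 2, they went from 107 to 316 with all 24 libraries and 170 with the block. For GFP-medium against GFP-negative cells they went from 2449 to 1548 without the filter, 1565 with all 24 libraries and 4190 with the block, and for GFP-high against GFP-medium cells from 1995 to 897, 1055 and 3078. The same total per library moved the median of all genes from 0.03 to 0.16 for NPCs against ESCs and from 0.00075 to -0.13 for day 5 against day 2. Few reads limit the family apart from Dcn after day 2.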
